A study of Mus musculus with 8 samples.

Results

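The genes of the synaptic vesicle release machinery were examined in hippocampal RNA from female mice. The members were picked by gene symbol alone. They were the numbered synaptotagmins (Syt), VAMPs, syntaxins (Stx) and syntaxin-binding proteins (Stxbp), Snap25, the complexins (Cplx), the RIM (Rims) and Munc13 (Unc13) families, bassoon (Bsn), piccolo (Pclo), the Rab3 GTPases, the synapsins (Syn), the SV2 proteins, synaptophysin (Syp) and synaptoporin (Synpr). This rule matched 71 of the 29442 genes in the deposited table, and all 71 entered the test. In 64 of them the mean count per library reached 100. The 7 below that level were Vamp5, Vamp9, Stx11, Unc13d, Syt15, Cplx4 and Syt8.

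The animals were C57BL/6 J mice aged 6 to 8 weeks, with no transgene named. In the first group, 4 mice received the adrenal androgen precursor dehydroepiandrosterone (DHEA) by subcutaneous injection at 30 mg/kg/day for 21 days, and in the second group 4 mice received sesame oil, the vehicle. The sample labels give the tissue as hippocampus, and the study's methods give it as the ventral hippocampus. Each mouse gave 1 polyA RNA library, named here as in the labels: HipR3, HipR4, HipR7 and HipR11 for DHEA and HipR5, HipR9, HipR10 and HipR16 for sesame oil. The study's own table of differential expression has the opposite direction to these sample labels, so the groups are called by their labels throughout and every direction rests on them.

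Neurotransmitter is released when a vesicle fuses with the presynaptic membrane. The SNARE proteins on the vesicle (synaptobrevin, encoded by Vamp genes) and on the plasma membrane (syntaxin and SNAP-25) zip together and pull both membranes into contact. Syntaxin-binding proteins and the Munc13 proteins assemble this complex, RIM, bassoon and piccolo hold it at the active zone near the calcium channels, complexins hold and assist it, and synaptotagmins sense the calcium that triggers fusion. Rab3 proteins and synapsins bring and tether the vesicles, whose membrane also carries synaptophysin and SV2. In the hippocampus this machinery serves both glutamatergic and GABAergic terminals. Several members of the same gene families, such as Stx5a in the Golgi apparatus, Stx7 on endosomes and Vamp3 in many cell types, act outside the synapse.

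RefSeq start sites on GRCm38.p6 were available for 55 of the 71 members, with 72 windows of 250 bases before the start. Those of Bsn, Pclo and Unc13a are shown because these active zone and priming genes had an unadjusted p under 0.05 and a lower mean in the libraries labelled DHEA (below). GC boxes (GGGCGG on either strand), the binding motif of Sp family factors common in promoters without a TATA box, are in capitals.
Bsn, chr9:108190384-108190633, minus strand: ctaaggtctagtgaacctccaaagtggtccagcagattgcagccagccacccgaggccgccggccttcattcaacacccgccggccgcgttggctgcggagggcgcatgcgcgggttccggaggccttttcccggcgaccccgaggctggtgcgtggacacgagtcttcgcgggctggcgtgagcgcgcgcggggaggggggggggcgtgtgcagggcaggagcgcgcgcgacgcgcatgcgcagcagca
Pclo, chr5:14514668-14514917, plus strand: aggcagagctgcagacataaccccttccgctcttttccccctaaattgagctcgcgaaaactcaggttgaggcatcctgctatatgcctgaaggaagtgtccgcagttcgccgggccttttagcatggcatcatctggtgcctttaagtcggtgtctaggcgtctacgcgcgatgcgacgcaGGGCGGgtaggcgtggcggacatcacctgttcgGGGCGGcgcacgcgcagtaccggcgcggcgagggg
Unc13a, chr8:71671758-71672007, minus strand: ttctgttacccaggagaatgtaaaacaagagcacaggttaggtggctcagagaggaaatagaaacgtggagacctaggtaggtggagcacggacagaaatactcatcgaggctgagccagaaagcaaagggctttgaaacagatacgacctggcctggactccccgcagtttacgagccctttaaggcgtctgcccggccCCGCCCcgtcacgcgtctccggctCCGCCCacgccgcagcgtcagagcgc
The Pclo and Unc13a windows held 2 GC boxes each and the Bsn window 0, although 71.6% of its bases were G or C. A GC box was found in 61.1% of the members' windows and in 32.7% of all 32851 windows. The motif TATAAA was found in 6.94% of the members' windows and 12.4% of all windows, and the cyclic AMP response element TGACGTCA in 2.78% and 1.55%. These are matches of letters and not measured sites. The GC box is not independent of the base composition of a window, and some windows belong to alternative starts of 1 gene.

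Gene counts summed to 35748416 to 38038361 per DHEA library and 31483772 to 35418297 per sesame oil library. The deepest sesame oil library was therefore shallower than every DHEA library. Levels are given as CPM (counts per 1000000 after TMM scaling) when libraries are compared, and as FPKM, which also divides by gene length, when genes are compared. At the smallest depth 3 counts correspond to 0.0953 CPM, the limit that a count of 0 allows for counting error only. The members together took 1.625% to 1.787% of all counts. HipR3 and HipR4 stood apart within the DHEA group. The chi-square per gene between pairs of libraries was 29.4 to 57.1 for the pairs of the DHEA group that hold 1 or both of them, 13.8 for HipR7 with HipR11, and 7.93 to 14.8 among the sesame oil pairs. Some members showed the same split. Stx3, a plasma membrane syntaxin, was at 21.3 and 21.7 CPM in HipR3 and HipR4 and at 42.6 and 42.9 in HipR7 and HipR11, with 32.7 to 42.7 in the sesame oil libraries. Stxbp2 was at 17.6 and 14.1 CPM in HipR3 and HipR4, at 29.7 and 33.3 in HipR7 and HipR11, and at 25.5 to 28.2 in the sesame oil libraries. Both genes were picked for this description after their values were seen. Neuronal and hippocampal markers were present in every library, with Map2 at 1590.3 to 1857 CPM and Prox1, a marker of dentate granule cells, at 112 to 145 CPM. In bulk tissue, fewer cells of a type and less RNA per cell cannot be told apart.

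Per unit of length, the levels of these 64 members spanned about 3 orders of magnitude. Snap25 was the highest, with 711 ± 26.1 FPKM for DHEA and 719.8 ± 39.8 for sesame oil (SD, n = 4 each, as for all following means, DHEA first). Syp followed with 477 ± 14.7 and 486 ± 6.5 FPKM, Vamp2 with 423 ± 13.9 and 406 ± 18.2, and Syt1 with 290.0 ± 13.6 and 303 ± 14.0. Both main complexins and Rab3a were also among the highest. Cplx2 was at 236 ± 16.6 and 242 ± 7.92 FPKM, Cplx1 at 211 ± 10.5 and 224 ± 14.2, and Rab3a at 203 ± 7.32 and 225 ± 5.89. The active zone and priming genes were lower, with Unc13a the highest of them at 35.6 ± 4.39 and 41.7 ± 1.25 FPKM. For 6 members (Stx4a, Rims2, Stxbp4, Vamp9, Syt10 and Syn3) the length behind the deposited FPKM was over 3 times the longest annotated transcript, so their FPKM are understated relative to that transcript.

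**Figure D1:**
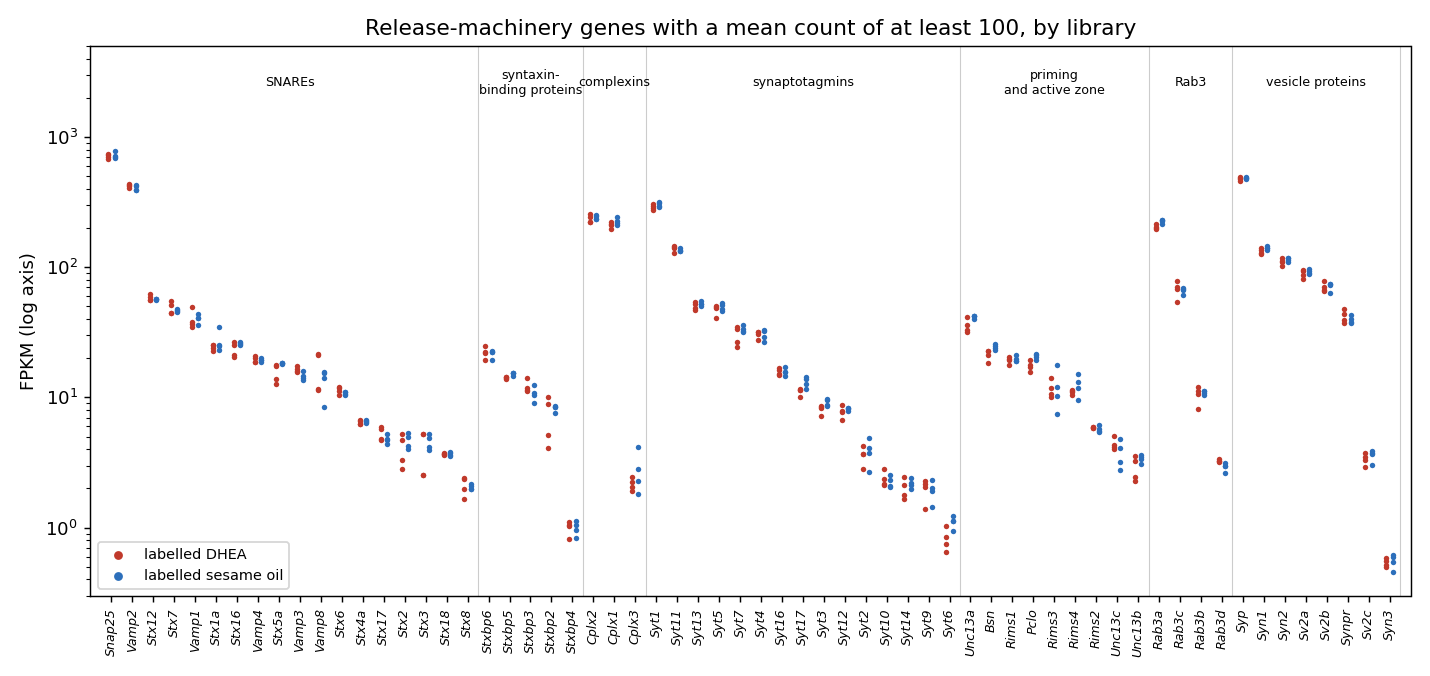
FPKM on a log axis for 62 of the 64 members whose mean count reached 100, ordered by level within each class, with 1 point per library (red for the 4 libraries labelled DHEA, blue for the 4 labelled sesame oil). Snap25, Syp and Syt1 stand at the top of their classes. For most genes the points of both groups stand side by side at similar heights, on an axis that shows small differences poorly.

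The first question was whether the machinery as a whole differed between the groups. Its summed level did not separate them. It was 17462, 16963, 16593 and 16107 CPM in HipR3, HipR4, HipR7 and HipR11, and 17059, 16543, 16888 and 17851 CPM in HipR5, HipR9, HipR10 and HipR16. Gene by gene, edgeR's quasi-likelihood test gave 9 of 71 members an unadjusted p under 0.05, or 12.7%, against 9.31% of all 27612 genes tested. Of the 9, 2 were higher in the libraries labelled DHEA (background 4.82%) and 7 were lower (background 4.49%). With DESeq2 or RLE scaling 1 was higher and 8 were lower. The count rested on single libraries, with 17 members without HipR7, 16 without HipR11 and 6 without HipR16, and leaving out 1 library at a time gave 0 to 5 higher and 5 to 12 lower. Where the mean count reached 100 and small differences are easier to see, 14.1% of the 64 members and 15.7% of all 12780 genes had such a p. All 9 members called were among these 64, and of the 12780 genes 8.08% were higher and 7.60% lower. The members' share of calls was therefore close to that of all genes of like abundance. After Benjamini-Hochberg adjustment over all genes, 0 members and 0.00% of all genes had an adjusted p under 0.05 with edgeR. DESeq2 gave 1.21% of the genes it judged an adjusted p under 0.05, with 0 members among them and the smallest member value at Pclo (adjusted p = 0.0654). The median log2 fold change of the members was -0.013 (DHEA over sesame oil), against 0.0079 for all genes.

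The precision of these comparisons was high for most members. The median standard error of the 64 better-measured members was 0.078 on the log2 scale, and for 57 of them the 95% interval of the log2 fold change lay within 0.5 of 0. The CPM of the groups did not overlap for 4 lower members, among them Bsn, Stx5a and Stxbp5, and for 1 higher member (Rab3d). Over all genes this was the case for 2.62% on the lower and 2.42% on the higher side. All of these members were among the 64 whose mean count reached 100. Of the 12780 genes at that level, 540 did not overlap on the lower side and 541 on the higher side.

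**Figure D2:**
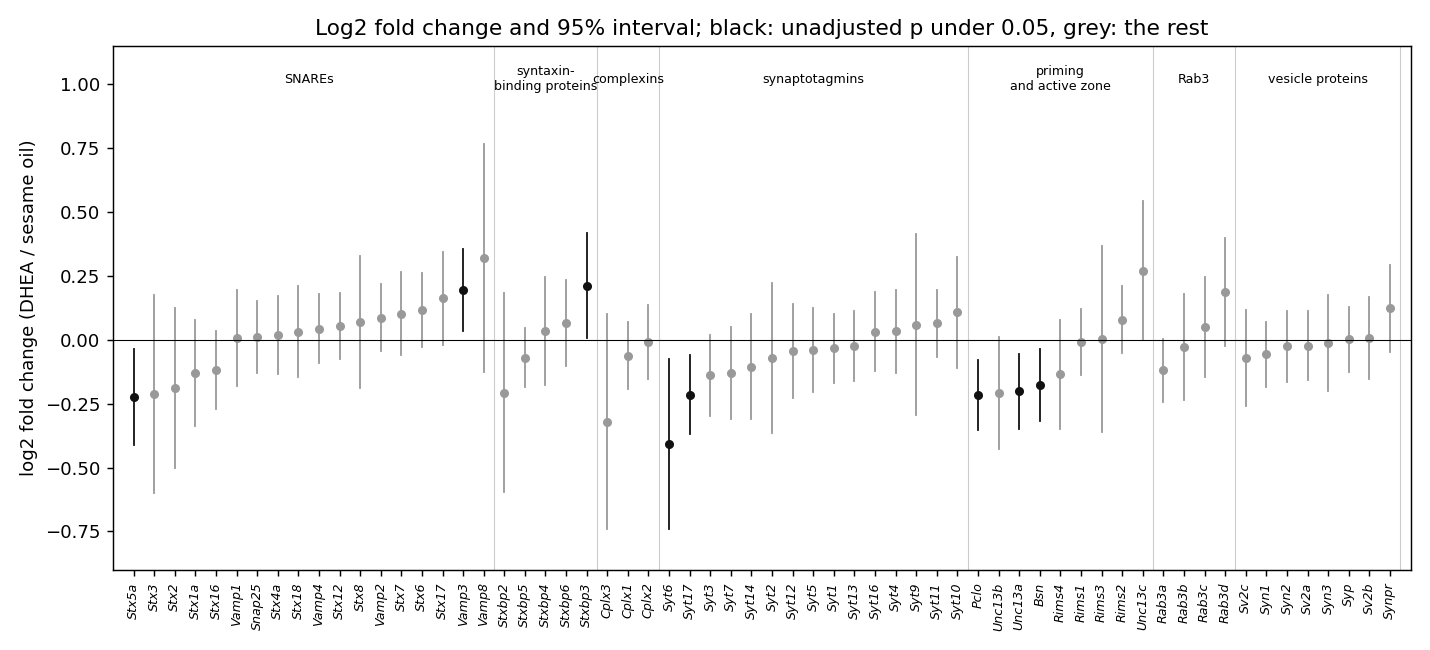
Log2 fold change (libraries labelled DHEA over sesame oil) with its 95% interval for 62 of the 64 members whose mean count reached 100, by class. Members with an unadjusted p under 0.05 are black, 6 of them below 0 and 2 above, and the intervals of the vesicle proteins and of Snap25, Vamp2, Syt1 and both main complexins include 0.

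Of the 10 active zone and priming genes, 3 had an unadjusted p under 0.05, and all 3 were lower in the libraries labelled DHEA. Over all genes the share was 9.31%, or 15.7% of those whose mean count reached 100, and 4.49% on the lower side. They were the scaffolds Pclo and Bsn and the priming factor Unc13a. Pclo, the giant scaffold that organizes the active zone, was at 387, 358, 428 and 389.9 CPM in HipR3, HipR4, HipR7 and HipR11 and at 471, 423, 453 and 467 CPM in HipR5, HipR9, HipR10 and HipR16. The highest DHEA library, HipR7, lay just above the lowest sesame oil library, HipR9, and the other three lay below all sesame oil libraries. The log2 fold change was -0.22 ± 0.065 (SE), or 0.861-fold, with an adjusted p of 0.296 (edgeR), the smallest of any member, and an exact permutation p of 0.0571. With the trend of transcript length removed (below), the log2 fold change was -0.12 and the unadjusted p was over 0.05. With that of GC content also removed, the unadjusted p was under 0.05.

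Bsn, the other giant scaffold, was at 414, 362, 429.6 and 433 CPM in HipR3, HipR4, HipR7 and HipR11, against 470.4, 436, 458 and 490.3 CPM in HipR5, HipR9, HipR10 and HipR16. The groups did not overlap, with HipR4 the lowest and a gap of a few CPM between HipR11 and HipR9. The log2 fold change was -0.18 ± 0.067 (SE), with an adjusted p of 0.410 (edgeR). Its exact permutation p (two-sided) was 0.0286, the smallest that 4 against 4 libraries allow. With the trend of either GC content or transcript length removed (below), Bsn no longer had an unadjusted p under 0.05. With both removed, its log2 fold change was -0.025.

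Unc13a, which encodes the Munc13 isoform that primes vesicles at most forebrain synapses, was at 283, 274, 345 and 296 CPM in HipR3, HipR4, HipR7 and HipR11. In HipR5, HipR9, HipR10 and HipR16 it was at 329, 343, 352 and 354 CPM. HipR7 lay within the sesame oil range, while the other DHEA libraries lay below it. The log2 fold change was -0.20 ± 0.070 (SE), with an adjusted p of 0.373 (edgeR) and an exact permutation p of 0.0857.

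The remaining genes of this class did not pass at that level when all 8 libraries were used. Rims1, which links vesicles to calcium channels, was at 229 ± 11.5 CPM against 231 ± 12.7, with a log2 fold change of -0.0090 and a 95% interval of -0.14 to 0.12. Rims2 had a log2 fold change of 0.079 and Rims3 of 0.0031. Unc13b, at a lower level than Unc13a, gave -0.21 (95% interval -0.43 to 0.011) and Unc13c, known mainly from the cerebellum, 0.27 (interval -0.0018 to 0.54), so that the point estimates of the Munc13 genes had different signs. Unc13c was higher at an unadjusted p under 0.05 without any 1 of HipR3, HipR7, HipR11, HipR9 and HipR16, Rims4 was lower without HipR10, and Unc13b was lower without HipR5, HipR7 or HipR11. The log2 fold change of Unc13b ran from -0.31 without HipR7 to -0.13 without HipR4, and was -0.0016 without both HipR3 and HipR4. Without HipR3 and HipR4, the log2 fold change of Pclo was -0.16, that of Bsn -0.11 and that of Unc13a -0.11, with HipR7 and HipR11 as the remaining DHEA libraries. The unadjusted p (edgeR) then stayed under 0.05 for Pclo and not for Bsn and Unc13a.

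**Figure D3:**
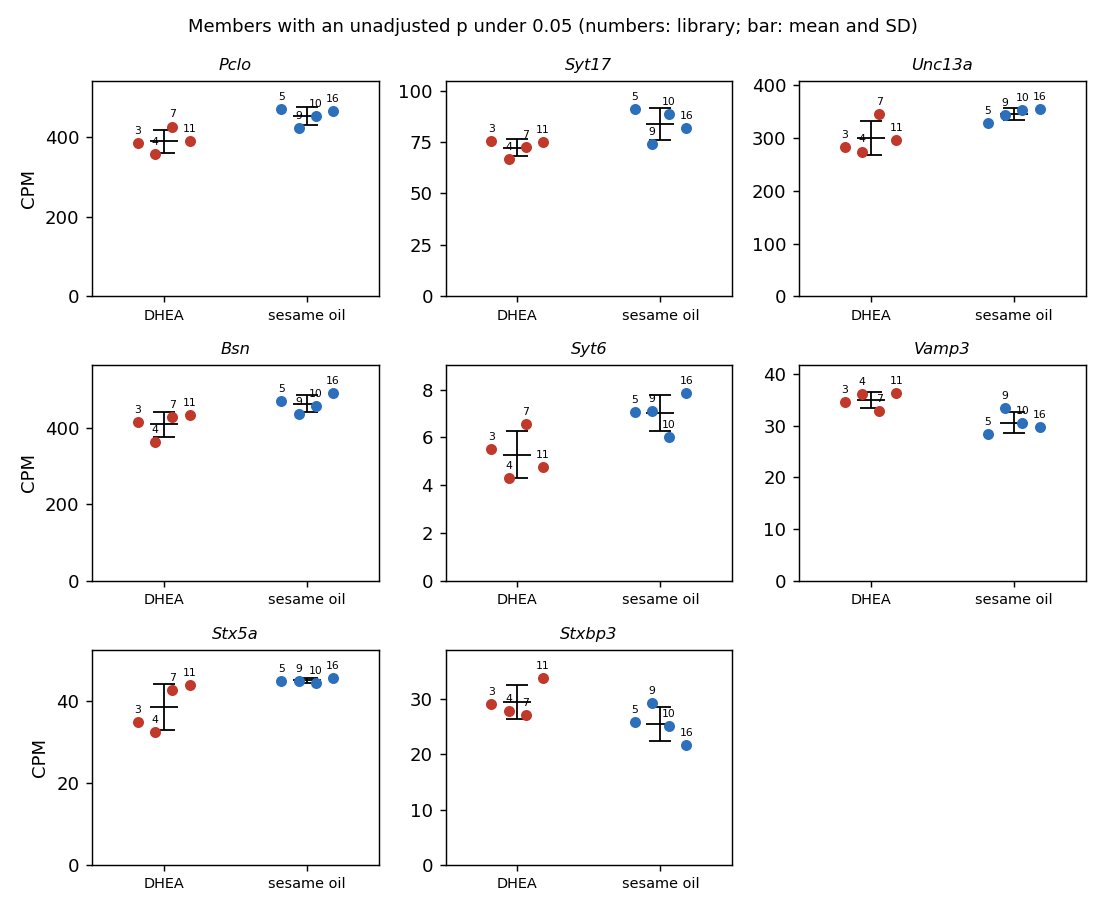
CPM in each library for 8 of the 9 members with an unadjusted p under 0.05, on axes starting at 0, with the library number beside each point and bars for the mean and SD of 4 libraries. Pclo, Syt17, Unc13a, Bsn, Syt6 and Stx5a have lower means and Vamp3 and Stxbp3 higher means in the libraries labelled DHEA, and the groups of Bsn and Stx5a do not overlap.

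The core neuronal SNAREs lay close together in both groups. Snap25 was at 1983, 1975, 1777 and 1812 CPM in HipR3, HipR4, HipR7 and HipR11 and at 1856, 1771, 1827 and 2039.6 CPM in HipR5, HipR9, HipR10 and HipR16. The groups covered the same range, and the fold change of 1.01 had a 95% interval of 0.913 to 1.11. Vamp2, the main vesicle SNARE of the forebrain, was at 925 ± 39.9 and 871 ± 43.1 CPM, a log2 fold change of 0.087 with an interval of -0.043 to 0.22. Stx1a gave -0.13 (interval -0.34 to 0.078), with 74.8, 79.8, 80.5 and 80.7 CPM in the DHEA libraries and 112 CPM in HipR16, against 74.2 to 80.4 in the other sesame oil libraries. The lower mean of Stx1a in the DHEA group thus came with 1 high sesame oil library, and without HipR16 its log2 fold change was 0.013.

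Of all 22 SNARE genes, 1 was lower and 1 was higher at an unadjusted p under 0.05 (9.09%, against 9.31% of all genes), and both act mainly outside the synaptic vesicle cycle. Stx5a, the syntaxin of transport between endoplasmic reticulum and Golgi, was at 35.0, 32.6, 42.9 and 44.0 CPM in HipR3, HipR4, HipR7 and HipR11 and at 45.1, 45.1, 44.6 and 45.8 CPM in HipR5, HipR9, HipR10 and HipR16. The sesame oil libraries were within about 1 CPM of each other, HipR7 and HipR11 lay just below them, and HipR3 and HipR4 carried most of the difference. The log2 fold change was -0.22 ± 0.089 (SE, adjusted p = 0.441 with edgeR), and -0.061 without HipR3 and HipR4, where the unadjusted p was no longer under 0.05. The same was true without HipR3 alone (-0.18) or HipR4 alone (-0.16). Vamp3, or cellubrevin, a SNARE of recycling endosomes in many cell types including glia, was at 34.6, 36.2, 32.9 and 36.3 CPM in the DHEA libraries against 28.5, 33.4, 30.6 and 29.9 CPM in HipR5, HipR9, HipR10 and HipR16. HipR7 and HipR9 overlapped by less than 1 CPM, and the log2 fold change was 0.19 ± 0.077 (SE, adjusted p = 0.438). It fell to between 0.16 and 0.18 without HipR4, HipR5 or HipR16, where the unadjusted p was over 0.05. The median log2 fold change of the 22 genes was 0.037.

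Among the syntaxin-binding proteins reported here, which are not all of the class, Stxbp3 was higher at an unadjusted p under 0.05. Over all genes, 4.82% were higher at that level. Stxbp3, a ubiquitous member that serves glucose transporter traffic in other tissues, was at 29.2, 27.8, 27 and 33.8 CPM against 25.8, 29.2, 25 and 21.7 CPM, with overlapping groups and a log2 fold change of 0.21 ± 0.098 (SE, adjusted p = 0.531). Its unadjusted p was over 0.05 without any 1 of HipR3, HipR11, HipR5, HipR10 and HipR16, and under DESeq2 and RLE scaling. Stxbp5, or tomosyn, which competes for syntaxin complexes, did not overlap between the groups (144 to 151 CPM in the DHEA libraries, 152 to 157 in the others) but differed by -0.070 on the log2 scale (95% interval -0.18 to 0.046). It was lower at an unadjusted p under 0.05 with the GC trend removed (-0.13) and with limma on FPKM.

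Of the 17 synaptotagmins, 2 (11.8%) were lower and 0 were higher at an unadjusted p under 0.05, a share near the 9.31% of all genes. The calcium sensor of fast release, Syt1, was not among them, with 1706, 1542, 1592 and 1535 CPM in HipR3, HipR4, HipR7 and HipR11 and 1660.3, 1540.5, 1590.5 and 1736 CPM in HipR5, HipR9, HipR10 and HipR16. Its values covered the same range in both groups, with a fold change of 0.977 (95% interval 0.890 to 1.07). Syt17, an atypical synaptotagmin also called B/K protein, was at 75.3, 66.6, 72.6 and 74.8 CPM in the DHEA libraries against 91.0, 73.9, 88.8 and 81.9 CPM in HipR5, HipR9, HipR10 and HipR16. All sesame oil libraries except HipR9 lay above the DHEA libraries, and the log2 fold change was -0.21 ± 0.073 (SE, adjusted p = 0.364 with edgeR). Syt6, a much rarer member with a mean FPKM near 1, was at 5.52, 4.29, 6.55 and 4.74 CPM against 7.06, 7.11, 6.00 and 7.84 CPM, a log2 fold change of -0.41 ± 0.16 (SE, adjusted p = 0.421). HipR7 and HipR10 overlapped, and its unadjusted p was over 0.05 without HipR4 (-0.33) or HipR16 (-0.36). The calls of Syt17 and Syt6 thus concerned members well below Syt1 in level.

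The complexins held 0 calls among 4 genes when all 8 libraries were used, against 9.31% of all genes. Cplx2 was at 1496 ± 137 and 1506 ± 47.2 CPM, a fold change of 0.994 (95% interval 0.898 to 1.10), with HipR3 and HipR4 at 1568 and 1654 CPM and HipR7 and HipR11 at 1377 and 1386. Cplx1 was at 466 ± 15.7 and 487 ± 33.0 CPM, a fold change of 0.957 (interval 0.874 to 1.05). The vesicle proteins had the smallest median absolute log2 fold change of any class (0.025), with 0 calls among 8 genes when all 8 libraries were used. Both classes are too small for 0 calls to be read as differing from the 9.31% of all genes, or the 15.7% of those whose mean count reached 100. Syp was at 1197 ± 58.4 and 1196 ± 20.1 CPM, and its fold change of 1.001 had a 95% interval of 0.917 to 1.09. Syn1 and Syn2, the synapsins that tether the reserve pool, gave fold changes of 0.961 (interval 0.880 to 1.05) and 0.982 (0.892 to 1.08). Sv2a, the binding site of the antiepileptic levetiracetam, gave 0.984 (0.897 to 1.08). The intervals of Syp, Syn1, Syn2, Sv2a, Snap25, Syt1, Cplx1 and Cplx2 all lay between 0.874-fold and 1.11-fold. Without HipR3 and HipR4, Cplx2 and Syn2 were lower in the libraries labelled DHEA at an unadjusted p under 0.05, with log2 fold changes of -0.13 and -0.12.

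The Rab3 genes held 0 calls among 4 with edgeR on all genes with a count, against 9.31% of all genes. Their number of calls changed with the setting. Rab3a, which binds RIM on docked vesicles, was at 366, 349, 337 and 325 CPM in HipR3, HipR4, HipR7 and HipR11 and at 379.9, 357, 376 and 384 CPM in HipR5, HipR9, HipR10 and HipR16. HipR3 lay above HipR9, and the log2 fold change of -0.12 had a 95% interval of -0.24 to 0.0048. Rab3a was lower at an unadjusted p under 0.05 with DESeq2 or RLE scaling (-0.13 for both), with either filter on low counts, with limma on FPKM, with the length trend removed and without HipR3 and HipR4 (-0.18). Rab3d, a low member at 11.2 to 14.7 CPM, did not overlap between the groups, with a log2 fold change of 0.19 (95% interval -0.024 to 0.40), or 0.20 at an unadjusted p under 0.05 with the GC trend removed. Rab3c ranged from 490.0 CPM in HipR11 to 733 in HipR3, both labelled DHEA, a wider range than that of the sesame oil libraries (557 to 640.3).

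The balance between paralogs was compared within each library, where scaling between libraries has no part. None of the pairs separated the groups. Cplx1 stood at 0.774 to 1.001 times the FPKM of Cplx2 in the DHEA libraries and 0.832 to 1.03 in the sesame oil libraries. Both complexins were thus at nearly equal levels per unit of length, while the mean ratio of their raw counts over all libraries was 0.319. Vamp1 was far below Vamp2 (mean ratio 0.0944 and 0.0991), with HipR11 at 0.123. Syt1 exceeded Syt2 by 67.6 to 97.8 times in the DHEA libraries and 65.6 to 110.0 times in the others. The mean FPKM ratio of Unc13a to Unc13b was 12.5 and 12.3, that of Sv2a to Sv2b 1.28 and 1.30, that of Syn1 to Syn2 1.2 and 1.23, and that of Rab3a to Rab3c 3.06 and 3.39. For Rims1 to Rims2 it was 3.27 and 3.48 with the deposited length of Rims2, and for Syp to Synpr 11.4 and 12.4. The direction of Sv2a to Sv2b, of Syn1 to Syn2 and of Rab3a to Rab3c rests on the deposited lengths. The mean ratios of their raw counts over all libraries were 0.664, 0.677 and 0.587. All these ratios are descriptions that depend on the lengths used. These are descriptions across 4 libraries per group with no test.

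Genes outside the rule that work beside the machinery passed an unadjusted p under 0.05 at a share near that of all genes. Of 56 such genes, 55 were tested, and 5 had an unadjusted p under 0.05, 4 lower and 1 higher. This was 9.09%, against 9.31% of all genes and 15.7% of those whose mean count reached 100. Cacna1a, the pore of the P/Q-type calcium channel that triggers release, was at 117, 116, 144 and 142 CPM in HipR3, HipR4, HipR7 and HipR11 and at 149, 146, 153 and 157 CPM in HipR5, HipR9, HipR10 and HipR16. HipR3 and HipR4 were the lowest, HipR7 and HipR11 lay just below the sesame oil libraries, and the log2 fold change was -0.22 (adjusted p = 0.372), or -0.082 without HipR3 and HipR4. Rimbp2, which ties RIM to these channels, showed the same split, with 122.5, 123.1, 162 and 157 CPM against 162, 173, 167 and 158 CPM. Its log2 fold change was -0.23, and -0.055 without HipR3 and HipR4, where the unadjusted p of both Cacna1a and Rimbp2 was over 0.05. Atp6v0a1, a subunit of the vesicular proton pump, gave -0.18 with groups that did not overlap, Doc2b, a calcium-binding protein linked to spontaneous release, -0.21 and Scamp1, a secretory carrier membrane protein, 0.14. The unadjusted p of Doc2b was over 0.05 without HipR5, HipR7 or HipR10 and that of Scamp1 without any of 6 single libraries, while that of Rimbp2 was over it without HipR3. Without both HipR3 and HipR4, Doc2b was at -0.34 and Atp6v0a1 at -0.16, each with an unadjusted p under 0.05. The 9 genes of SNARE disassembly and other SNAREs and the 10 recycling genes held 0 calls each. The glutamate transporter gene of the vesicle, Slc17a7, was at 933 to 1023 CPM in the DHEA libraries and 994 to 1082 in the others (log2 fold change -0.094).

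Base composition moved with the groups, and transcript length with HipR3 and HipR4. Across 15594 genes, the correlation of a library's expression with GC content was -0.16 to -0.010 in the DHEA libraries and 0.073 to 0.18 in the sesame oil libraries. The correlation with transcript length was -0.11 in HipR3 and -0.19 in HipR4, and between 0.0049 and 0.13 in the other 6. Among the 12448 genes whose mean count reached 100 and that had an annotated length, the share called lower in the libraries labelled DHEA went from 1.18% of those with transcripts up to 1000 bases to 19.4% of those over 12000 bases, while the share called higher went from 12% to 2.29%. Pclo, Bsn and Unc13b are the 3 members over 12000 bases. When each library's trend with GC content was removed, Pclo had a log2 fold change of -0.25 and Unc13a of -0.18, both with an unadjusted p under 0.05, while Bsn (-0.13), Vamp3 (0.15) and Stxbp3 no longer had one. When the trend with length was removed instead, Pclo had a log2 fold change of -0.12 and Bsn of -0.10, neither with an unadjusted p under 0.05, while Unc13a (-0.17) stayed under it. With the trends of GC content and length both removed, the log2 fold change was -0.12 for Pclo, -0.025 for Bsn and -0.12 for Unc13a. The unadjusted p then stayed under 0.05 for 5 of the 9 members, among them Pclo, Syt17, Syt6 and Stx5a, and not for Bsn, Unc13a, Vamp3 and Stxbp3.

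**Figure D4:**
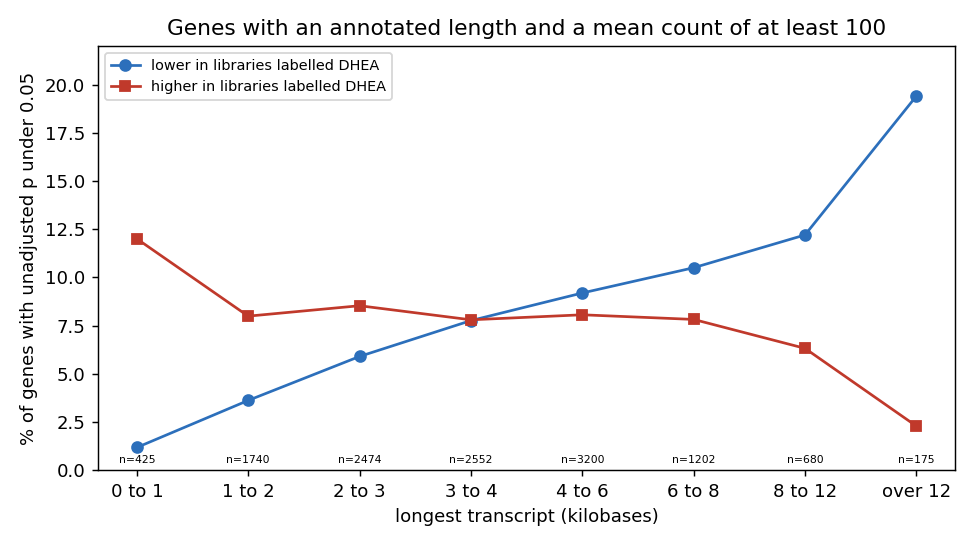
Percentage of genes with an unadjusted p under 0.05 (edgeR) in each class of longest transcript in kilobases, for the 12448 genes whose mean count reached 100 and that had an annotated length, with the number of genes at the foot. The share lower in the libraries labelled DHEA (circles) goes from 1.18% to 19.4% with length, and the share higher (squares) from 12% to 2.29%.

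Markers of other cells also moved with the groups. All 6 markers of myelinating oligodendrocytes were higher in the libraries labelled DHEA at an unadjusted p under 0.05, with summed levels of 6163, 7802, 6087 and 6283 CPM in HipR3, HipR4, HipR7 and HipR11 and 4159 to 5931 CPM in the others, Mbp being the most abundant. Of the astrocyte markers 4 of 6 were higher, with sums of 5746 ± 456 and 5070.2 ± 339 CPM that overlapped and Slc1a2 as the most abundant. Of the microglial markers 2 of 5 were higher (234 ± 31.1 and 205 ± 12.7 CPM, Csf1r the most abundant), and of the endothelial markers 3 of 5 (267 ± 21.6 and 233 ± 7.74 CPM, Flt1 the most abundant). The neuron markers summed to 4227 ± 212 and 4122 ± 98.1 CPM, with 2 of 8 lower (Rbfox3 and Nefm). Map2 was the highest of them in CPM and Thy1 in FPKM. The 6 inhibitory neuron markers held 0 calls, with Gad1 the highest in CPM and Sst in FPKM. Of the 6 markers of hippocampal principal neurons, 1 (Spink8) was higher. The choroid plexus markers held 0 calls among 5 and ranged over libraries from 86.3 to 4315 CPM, with HipR4 the lowest. Markers of the anterior pituitary summed to 1.49 ± 0.719 and 8.99 ± 11 CPM, with Gh and Prl lower at an unadjusted p under 0.05. Prl was the most abundant by the mean of all 8 libraries, which HipR10 carried with 16.6 CPM, while Lhb exceeded Prl in every DHEA library (means 1.35 and 0.0823 CPM). Gh had 0 counts in HipR3, HipR4 and HipR7, 3 in HipR11 and 5 to 248 in the sesame oil libraries. The part of these cell types in the values of the release machinery was not tested.

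**Figure D5:**
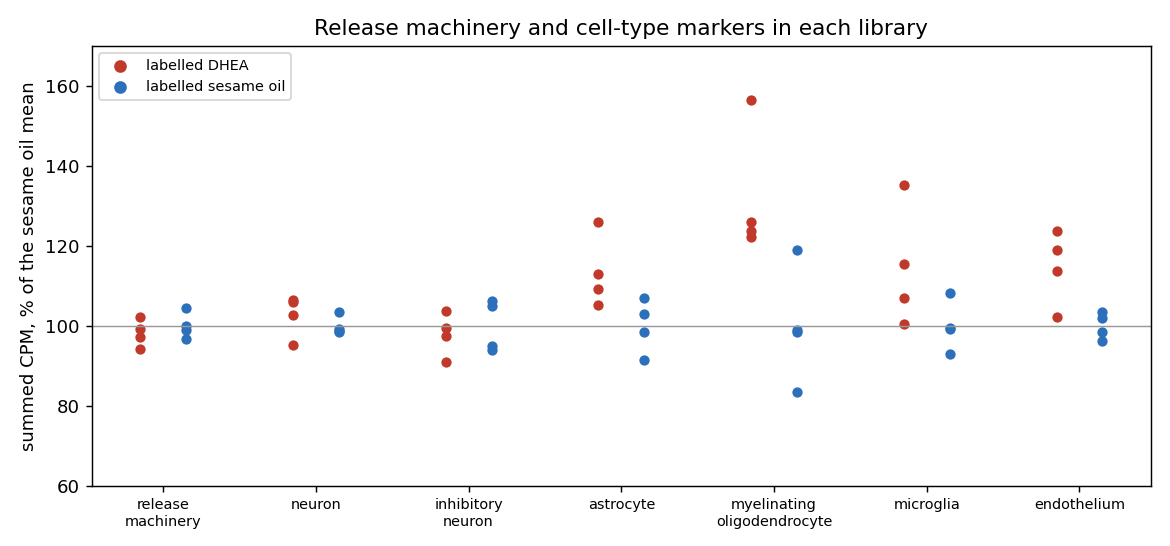
Summed CPM of the release machinery and of some of the marker lists in each library, as a percentage of the sesame oil mean (100%). The lists of hippocampal principal neurons, choroid plexus and anterior pituitary are not shown. The release machinery lies between 94.3% and 104% in all libraries, and the myelinating oligodendrocyte markers reach 157% in HipR4, with the 4 DHEA libraries above the 4 sesame oil libraries.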

How the data were processed

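PolyA RNA-seq of 8 hippocampal libraries was analysed, 4 labelled DHEA and 4 labelled sesame oil. The dose, age and strain come from the study's methods. Raw gene-level read counts of the 8 libraries, and FPKM values made from them, were deposited by the authors. The submitters' processing notes name fastp, HISAT2, HTSeq and GRCm39, with no versions, and the strand setting of the counting is not given in the sources used here, so reads of a gene and of an antisense neighbour cannot be told apart. Deposited FPKM equalled counts divided by the library total and 1 length per gene (25234 of 25234 genes, within 0.1%).

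From the counts, edgeR 4.0.16 (R 4.3.3) was used for TMM normalization and the quasi-likelihood test on 27612 genes with at least 1 count in any library (prior count 0.125), with Benjamini-Hochberg adjustment over all of them. CPM are TMM-scaled. The standard error is the absolute log2 fold change divided by the square root of F. For single genes, all 70 allocations of 4 libraries to each group were enumerated (exact permutation test, two-sided). Total counts were 31483772 to 38038361 per library, and the errors given are those of the spread between libraries. Nothing in the labels says that libraries of a group shared animals, a cage or a batch. The libraries of a group differed by more than sampling noise.

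GC content and length were those of each symbol's longest transcript in GENCODE vM21 (21308 genes), on another build than the counts, so no coordinates were joined. Promoter windows are RefSeq's on GRCm38.p6. The alternatives were DESeq2 1.42.0, RLE scaling, a minimum of 10 counts, filterByExpr, robust moderation, a prior count of 1, limma-trend (limma 3.58.1) on log2(FPKM + 1) and log2(FPKM + 0.1), a fold threshold, removal of the lowess trend (span 0.3) with GC content, and leaving out each library. Removal of the length trend, of both trends, the GC genes without correction and leaving out HipR3 and HipR4 were chosen after seeing the data. Scripts were tested on simulated data.

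The members, the list of other presynaptic genes, the marker lists and the tests were chosen with earlier results of these data known. Named were members with an unadjusted p under 0.05, the core machinery (among others Snap25, Stx1a, Vamp2, Syt1, Cplx1, Cplx2, Unc13a, Rims1, Bsn, Pclo, Rab3a, Syn1, Syn2, Syp and Sv2a), the highest member of each class, the paralog pairs, members with at most 3 counts in every library (Syt8), and other presynaptic genes with an unadjusted p under 0.05. Stxbp2, Stxbp5, Stx3, Rab3d, Rims3, Unc13c and Slc17a7 were named after their values were seen. Some members are not reported here, and the counts and medians still include them.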

Additional observations from a re-analysis of the deposited data

Results flagged for a closer look

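The genes of the naming rule, some others that the text describes, the summed lists and the paralog ratios were checked in each group of 4 libraries for a library whose gap to its nearest neighbour took up more of the group's range than Dixon's critical value at 95%. Of 154 groups checked, 13 met this, where chance alone flags about 1 in 20.

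Stx1a had an isolated low value in the DHEA group (ratio 0.845), HipR3 at 74.8 CPM against 79.8 to 80.7 in the others, and an isolated high value in the sesame oil group (0.837), HipR16 at 112 CPM against 74.2 to 80.4. Vamp1 was high in HipR11 (0.839), at 156 CPM against 112 to 119, and so was the ratio of Vamp1 to Vamp2 (0.859), at 0.123 against 0.0817 to 0.0875. Sv2b was low in HipR9 (0.831), at 477 CPM against 551 to 567. Unc13c was high in HipR4 (0.885), at 52.3 CPM against 41.1 to 42.4 in the other libraries labelled DHEA.

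Among the other lists, the summed active zone scaffold and calcium entry genes were low in HipR11 (0.851), at 2315 CPM against 2417 to 2435. The summed recycling genes were high in HipR3 (0.867), at 3481 CPM against 3282 to 3308, and low in HipR9 (0.854), at 3315 CPM against 3455 to 3479. The summed neuron markers were high in HipR16 (0.854), at 4267 CPM against 4061 to 4091. The myelinating oligodendrocyte markers were high in HipR4 (0.886), at 7802 CPM against 6087 to 6283. The anterior pituitary markers were high in HipR10 (0.854), at 25.3 CPM against 2.13 to 5.51 in the other sesame oil libraries. Gh, one of these markers, stood at 0.0821 CPM in HipR11 against 0 in the other libraries labelled DHEA (ratio 1.0), which is 3 counts.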

How the results depend on the processing

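The count of 9 members with an unadjusted p under 0.05 was between 7 and 11 under every alternative except the fold threshold and leaving out single libraries. With a fold change of at least 2 as well, 0 members passed. Leaving out single libraries gave 6 to 17 (6 without HipR16, 16 without HipR11, 17 without HipR7) and a median log2 fold change of -0.032 to 0.013. Members outside the 9 that passed without at least 1 library were Rab3a, Rab3c, Unc13b, Unc13c, Rims4, Cplx3, Synpr, Vamp8, Stx2, Stx3, Stx6, Stx16, Stx17, Stxbp2, Syt7 and Syt14. Without HipR3 and HipR4, 10 members passed, of which 4 were among the 9 (Pclo, Syt17 and Stxbp3 included) and Cplx2, Rab3a, Syn2 and Syt13 were newly lower and Stx17 and Stxbp2 newly higher, and the median moved to -0.047. No alternative run on these counts with edgeR or DESeq2 gave a member an adjusted p under 0.05, and the number stayed at 0 without each library in turn.

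Log2 fold changes near 0 took the other sign under some settings, and the cause was not tested. Syp went to -0.0061 with DESeq2 and with RLE scaling, -0.0070 with at least 10 counts, -0.0090 with filterByExpr, -0.027 with either pseudocount on FPKM, -0.035 without the GC trend, -0.0059 on the GC genes alone, -0.011 without the length trend, -0.042 without both trends and -0.063 without HipR3 and HipR4. In the same order, Vamp1 went to -0.0016 (DESeq2), -0.0015 (RLE), -0.0020, -0.0036, -0.029 (FPKM + 1), -0.029 (FPKM + 0.1), -0.017 (GC trend) and -0.00045 (GC genes). Sv2b went to -0.0024 (DESeq2 and RLE), -0.0032, -0.0054, -0.023, -0.024, -0.021, -0.0022 (GC genes) and -0.12 (without HipR3 and HipR4). Snap25 went to -0.00049 with filterByExpr, -0.017 with either pseudocount, -0.074 without the GC trend, -0.055 without both trends and -0.069 without HipR3 and HipR4. Cplx2 went to 0.0097 without the GC trend and 0.030 without both trends, where Sv2a went to 0.012. Rab3c went to -0.011 without the GC trend. Without HipR3 and HipR4, Rab3c was at -0.14, Rims1 at 0.0011, Syt2 at 0.037 and Synpr at -0.040.

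Leaving out single libraries turned the sign of some of the same genes. The log2 fold change ranged from -0.020 to 0.046 for Snap25, -0.20 to 0.013 for Stx1a, -0.069 to 0.029 for Cplx2, -0.037 to 0.023 for Rims1, -0.069 to 0.019 for Syn2, -0.022 to 0.030 for Syp, -0.053 to 0.0014 for Sv2a, -0.11 to 0.052 for Vamp1, -0.21 to 0.059 for Syt2, -0.063 to 0.048 for Sv2b and -0.032 to 0.15 for Rab3c. None of the 9 called members turned its sign under any setting. No paired analysis was possible because the labels number the libraries without linking animals between the groups. The 7 members under a mean count of 100 had the largest standard errors.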
